A study of Mus musculus with 12 samples.

Results

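Libraries from mouse tumour macrophages, matched in 6 pairs, were compared for the genes whose level moved the same way in every pair when cells positive for an Arg1 reporter were set against reporter-negative cells. All 12 libraries of the series entered, and the genes with at least 1 FPKM (a level corrected for transcript length and library size) in at least 3 libraries were kept, which left 11808 of 24346. Of these, 1008 (8.54%) had the same sign in all 6 pairs, 534 higher and 474 lower in reporter-positive cells. The host mice carried Arg1-RFP, a red fluorescent reporter of arginase 1, and bore either B16F10 tumours, from a melanoma line, or MC38 tumours, from a colon adenocarcinoma line. Each tumour gave 3 RFP+ and 3 RFP- libraries, with n = 3 mice stated, and B16F10 libraries bear the numbers 12, 11 and 3 and MC38 libraries 1, 2 and 3 in both gates. All 4 groups passed the same sort, CD45+, F4/80+, CD11b+ and MHCII+ cells without Ly6C, Ly6G, NK1.1, B220 or CD90.2, so every group is made of cells chosen for surface MHC class II. The sources used here do not give age, sex, strain, time after tumour implantation or how the reporter was made. Eif2s3y, a gene of the Y chromosome, differed by library number and was alike in both gates. It was at 10.7 to 13.6 FPKM in B16F10 numbers 12 and 3, and at 39.8 and 40.5 FPKM in MC38 number 3. In B16F10 number 11 and MC38 numbers 1 and 2 it was at most 0.114 FPKM. Sex was not entered in the fits. Libraries are not linked to individual animals by any label, and a reporter-negative gate can still hold cells with some Arg1 message.

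Tumour-associated macrophages derive mostly from recruited monocytes and adapt to local signals such as lack of oxygen, lactate, dying cells and cytokines. Arginase 1 turns arginine into ornithine and urea, which removes arginine that T cells need and feeds polyamine and proline synthesis. It is induced by interleukin-4, by hypoxia, by lactate and after uptake of dead cells, and is often used as a sign of tissue-repair or suppressive macrophages. MHC class II molecules present peptides to CD4+ T cells.

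Reporter-positive macrophages of both tumours shared a program with Arg1, secreted matrix and chemokine genes (Spp1, Mmp12, Mmp13, Fn1, Pf4), lipid and lysosome genes (Cd36, Ctsl, Atp6v0d2) and hypoxia genes (Adm, Egln3, Hilpda) on the higher side. MHC class II genes and several lectin-type receptors (Clec4b1, Klrb1b, Klra17) were on the lower side. With 4 group means fitted by limma, 40 genes (0.339% of those kept) passed an adjusted p of 0.05 as higher in RFP+ and 13 (0.11%) as lower. With the 6 pairs as a block, which compares each RFP+ library with the RFP- library of its own number, 156 (1.32%) passed as higher and 71 (0.601%) as lower, and all 53 genes of the first fit were among them. Of the 53 genes, 39 higher and 13 lower ones had the same sign in all 6 pairs. Flrt2 was the exception, higher in 5 of 6. Differences are RFP+ minus RFP- on log2(FPKM + 1), with the standard error of the fit without the block unless the block is named.

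**Figure D1:**
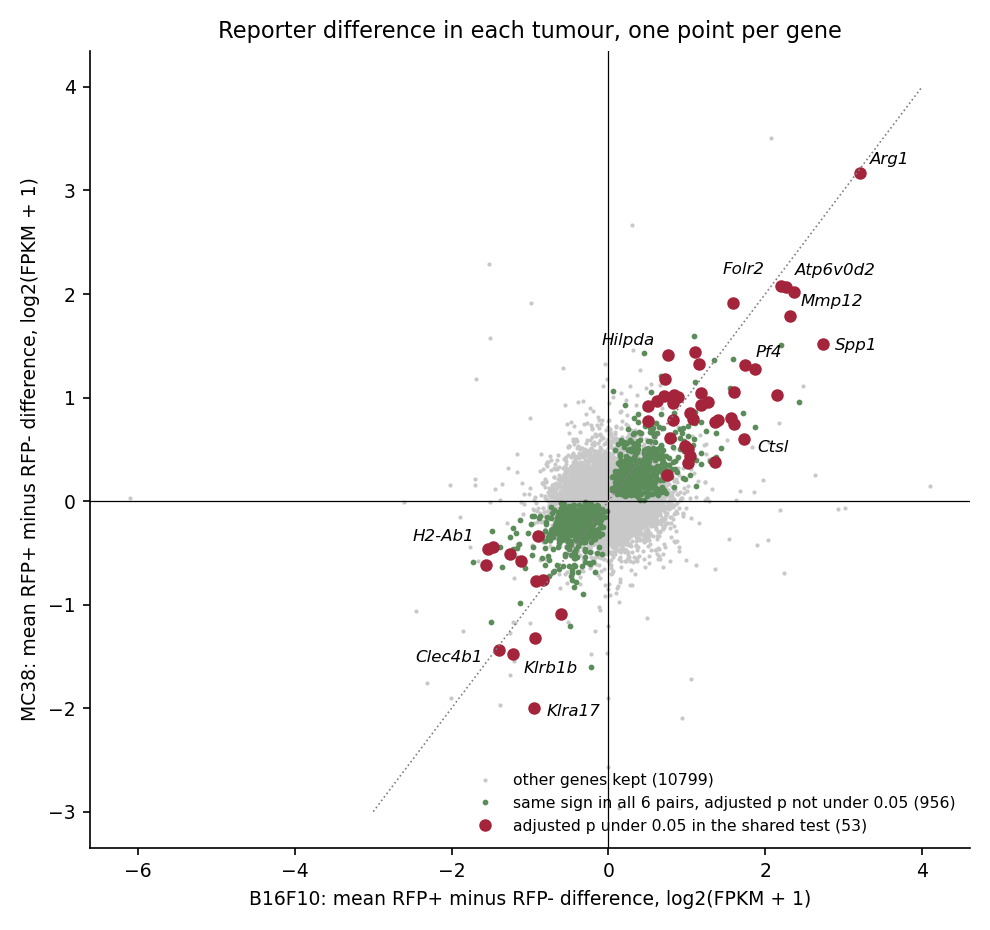
Mean RFP+ minus RFP- difference in log2(FPKM + 1) for each gene kept, with B16F10 on the x axis and MC38 on the y axis. Grey points are genes without the same sign in all pairs, green points have the same sign in all 6 pairs, red points passed an adjusted p of 0.05 in the shared test (53 genes), and the dotted line marks equal differences. Arg1 lies on that line, Spp1 and Ctsl lie on its B16F10 side, and Hilpda and Klra17 were displaced towards MC38. Klra17 was at most 2.92 FPKM in B16F10, where the 1 added before the log understates its change.

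Same-sign genes were 4.52% (higher) and 4.01% (lower) of the genes kept. The numbers of genes higher in none, 1, 2, 3, 4, 5 and all of the 6 pairs were 474, 1388, 2449, 3010, 2399, 1273 and 534 among genes with no exact tie. The median difference was 0.37 for higher and -0.32 for lower genes. Of the 1008, 272 had a mean difference under 0.25 in size and 43 reached 1, of which 34 were higher and 9 lower. A difference of at least 0.25 in every pair was found for 88 higher (0.745%) and 38 lower genes (0.322%). RFP+ and RFP- libraries did not overlap within either tumour for 113 higher (0.957%) and 61 lower genes (0.517%). Over all 12 libraries together, 24 higher (0.203%) and 5 lower genes (0.0423%) had no overlap. The 24 included Arg1, Folr2, Mmp12, Adm, Egln3, Ctsl, Rnf128, Emp1, Gclm and Plk2, and the 5 were Clec4b1, Rogdi, Orai3, Ccdc107 and Pigv.

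The libraries differed in ways that bear on all of these values. Melanocyte genes such as Dct and Pmel summed to 9719 to 13203 FPKM in B16F10 RFP+ and 9805 to 12993 in B16F10 RFP- libraries, against 27.9 to 51.0 and 57.0 to 85.4 in MC38 RFP- and RFP+ libraries, and 0 of their 12 members had the same sign in all pairs. The 20 macrophage core genes summed to 11373 to 18486 FPKM in RFP+ and 9343 to 15711 in RFP- libraries of B16F10, and to 43773 to 44346 and 33999 to 36865 in MC38. Of these 20 genes, 7 were higher and 3 lower in all 6 pairs. The part of this difference in the other results was not tested, beyond a scaling of each library to these genes. That scaling lowered the median of all genes by 0.09 and turned the same-sign split from 534 higher and 474 lower into 230 higher and 1361 lower, and the tested genes from 40 and 13 into 18 and 18. Of the 53 genes, 24 kept the call under it, among 36 genes called. Under it, 51 of the 53 genes still had the same sign in all 6 pairs; Flrt2 and Serpinb6a had it in 5. The same-sign counts of the lists, higher and lower, went from 13 and 0 to 8 and 1 for matrix genes, from 9 and 0 to 6 and 1 for lipid handling, from 6 and 0 to 5 and 2 for iron, heme and antioxidant genes, from 10 and 1 to 8 and 2 for monocyte-like genes and from 4 and 1 to 0 and 2 for type I interferon genes. The B16F10 RFP- library number 12 stood apart, with r of 0.938 to 0.961 to the other libraries of its tumour, and without its pair the block fit passed 215 higher and 112 lower genes. Genes of T cells, NK cells, B cells and epithelium were low, with sums of at most 8.81, 3.46, 19.0 and 5.39 FPKM in B16F10 and 10.9, 20.1, 36.2 and 13.8 FPKM in MC38. Fibroblast genes summed to at most 5.59 FPKM in B16F10. In MC38 they summed to 59.9 to 69.0 FPKM in RFP+ and 51.0 to 64.0 FPKM in RFP- libraries. Of the 5 fibroblast genes kept, 0 had the same sign in all pairs. Endothelial genes summed to at most 20.0 FPKM in B16F10 and 21.0 FPKM in MC38. The part of stromal cells in the matrix genes below was not tested. In bulk RNA, fewer cells of a type and less RNA per cell cannot be told apart.

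Arg1 itself (chr10:24915221-24927484, minus strand, GENCODE M21 on GRCm38) checks the gate, since the reporter is named for this gene. Values are listed in the order 12, 11, 3 for B16F10 and 1, 2, 3 for MC38. In B16F10 it stood at 615, 642 and 916 FPKM in RFP+ and 62.8, 56.2 and 125 FPKM in RFP- libraries. In MC38 it stood at 471, 553 and 394 FPKM in RFP+ and 56.0, 58.5 and 40.6 FPKM in RFP- libraries. The gates were apart in both tumours, and every RFP- library still held Arg1 message. The difference was 3.19 ± 0.19 (SE), or 9.12-fold in FPKM + 1 (adjusted p = 3.69e-06), and the 6 pairs ran from 2.86 to 3.49, the narrowest spread relative to its size of any gene with a mean of at least 5 FPKM. It is a description of the sort and not a finding of these libraries.

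Of the other arginine and polyamine genes, Nos2 passed the threshold as higher, and Slc7a2 (higher) and Ass1 (lower) passed with the block. Slc7a2, a cationic amino acid transporter, was at 3.86, 3.85 and 2.89 FPKM in B16F10 RFP+ and 0.208, 0.921 and 1.38 in RFP- libraries, and at 10.9, 19.6 and 4.71 FPKM (RFP+) and 2.86, 7.21 and 1.61 FPKM (RFP-) in MC38. It was higher in every pair, by 1.36 ± 0.33, which missed the threshold without the block (adjusted p = 0.129) and passed with it (adjusted p = 0.00250). Nos2, the inducible nitric oxide synthase that uses the same substrate and is a textbook gene of classical activation, was at 5.34, 7.04 and 6.33 FPKM in B16F10 RFP+ and 2.48, 2.94 and 3.79 FPKM in RFP- libraries. In MC38 it was at 12.1, 17.4 and 9.01 FPKM (RFP+) and 5.02, 7.12 and 4.81 FPKM (RFP-). Over both tumours Nos2 rose by 0.93 ± 0.17 (adjusted p = 0.0344), with no overlap of the gates within a tumour. Tested in 1 tumour alone it passed in MC38 with the block (adjusted p = 0.0399, against 0.247 without it) and in neither fit in B16F10 (adjusted p = 0.0553 and 0.332). Scaling to the macrophage core genes ended the shared call (adjusted p = 0.281). The call over both tumours was kept without B16F10 RFP- number 11, B16F10 RFP- number 3, MC38 RFP+ number 3 and MC38 RFP- number 2 and lost when any other single library was left out, with an adjusted p of up to 0.102. Of the 20 arginine and polyamine genes kept, 5 were higher and 1 lower in all 6 pairs, with a median of 0.02 against -0.0023 for all genes. The transporters Slc7a1 and Slc7a7, which also carry cationic amino acids, were each higher in 3 of 6 pairs, at -0.07 and 0.02. Smox, spermine oxidase, was among the 5 at 0.43 ± 0.12 (adjusted p = 0.267). Ass1, which rebuilds arginine from citrulline, had differences of -1.85, -1.58, -1.67, 0.06, 0.09 and 0.32 in the 6 pairs, negative in each B16F10 pair and positive in each MC38 pair.

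Among secreted factors, Spp1 (osteopontin, a matricellular protein and cytokine) was one of the most abundant. It reached 4238, 2671 and 4154 FPKM in B16F10 RFP+ and 519, 441 and 692 FPKM in RFP- libraries. In MC38 it reached 422, 783 and 433 FPKM (RFP+) and 146, 280.3 and 148 FPKM (RFP-). It rose by 2.13 ± 0.21 (adjusted p = 0.000504), with 2.74 in B16F10 and 1.52 in MC38. The pairs within a tumour were close to each other.

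Pf4 (CXCL4, a chemokine stored in platelets and also made by macrophages) lies in the CXC chemokine cluster of chromosome 5 (chr5:90772435-90773383, plus strand). It was at 1493, 1206 and 2129 FPKM in B16F10 RFP+ and 696, 280.2 and 520.2 FPKM in RFP- libraries, and at 249, 433 and 283 FPKM (RFP+) and 86.3, 216 and 105 FPKM (RFP-) in MC38. The gates did not overlap within a tumour, and Pf4 rose by 1.53 ± 0.26 (adjusted p = 0.0234), a 2.88-fold difference in FPKM + 1. The call was lost without B16F10 RFP+ number 12, B16F10 RFP+ number 3, MC38 RFP+ number 1, MC38 RFP+ number 2, MC38 RFP- number 1 and MC38 RFP- number 3, with an adjusted p of up to 0.0861. Of 12 platelet markers 2 were kept, Pf4 and Ppbp, and the 12 summed to 1369 to 2252 FPKM in B16F10 RFP+ and 285 to 698 FPKM in RFP- libraries, and to 251 to 437 and 88.3 to 218 FPKM in MC38. Among the other 10, Itga2b, Gp9 and Gp1ba reached at most 0.371, 1.61 and 0.143 FPKM and were higher in 3, 4 and 1 of the 6 pairs. The part of platelet RNA in the Pf4 values was not tested. The neighbours of Pf4, Cxcl3, Cxcl1 and Cxcl2, which attract neutrophils, were higher in all 6 pairs as well, by 1.70, 0.76 and 0.98, and passed only with the block (adjusted p = 0.00669, 0.0380 and 0.000645, against 0.0661, 0.765 and 0.455 without it). Ppbp (CXCL7, a chemokine of platelets), between Pf4 and Cxcl5 in the same cluster, was not shared: its differences were 4.01, 5.07, 3.22, -0.26, 0.86 and -0.17. The cluster was examined because of these values, and its genes are close paralogs whose reads can be split differently by the authors' mapping.

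The stretch of 100 bases before the Pf4 start is shown because the gene moved in every pair in both tumours; capitals mark GAGGAA, the core bound by PU.1, a transcription factor of all macrophages, here read on the opposite strand. Sequences are from RefSeq on GRCm38.p6 and run 5′ to 3′ in the direction of the gene, and this one lies at chr5:90772335-90772434, plus strand.
Pf4: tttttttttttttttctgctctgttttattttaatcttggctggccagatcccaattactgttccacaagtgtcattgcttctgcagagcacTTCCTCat
That motif was found in 22.8% of the 11524 promoters matched to kept genes (250 bases before the start, both strands). It was in 24.8% of the promoters of same-sign higher genes and in 26.6% of those of same-sign lower genes. Past the threshold, 12 of 41 promoters of higher genes (29.3%) and 7 of 13 of lower genes (53.8%) held it.

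Other chemokines and cytokines had smaller shared differences. Of 13 CC and other chemokines, 3 were higher and 0 lower in all pairs. Ccl8, a monocyte attractant, was at 1311, 539 and 922 FPKM in B16F10 RFP+ and 650.5, 178 and 219 in RFP- libraries, and at 853, 1257 and 731 FPKM (RFP+) and 415, 522 and 372 FPKM (RFP-) in MC38. Its difference of 1.32 ± 0.30 passed with the block (adjusted p = 0.000381, against 0.0937 without it), as did Ccl9 (0.81, 0.00231 against 0.369) and Ccl6 (0.82, 0.00337 against 0.697). Among 30 growth factors and cytokines, 8 were higher and 2 lower in all pairs; the count past the limma threshold was 0 without (9 at an unadjusted p under 0.05) and 7, all higher, with the block. They included the interleukin-1 gene Il1a at 1.28 and its antagonist Il1rn at 0.77, the activin subunit Inhba at 0.90, and the angiogenic factor Vegfa at 0.61 (adjusted p with the block 0.0126, 0.000776, 0.00621 and 0.0244; without it 0.741, 0.397, 0.709 and 0.475). Cxcl9, an interferon gamma target that attracts T cells, was lower in all 6 pairs, at -0.50 ± 0.16 (adjusted p = 0.377; 0.0336 with the block).

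**Figure D2:**
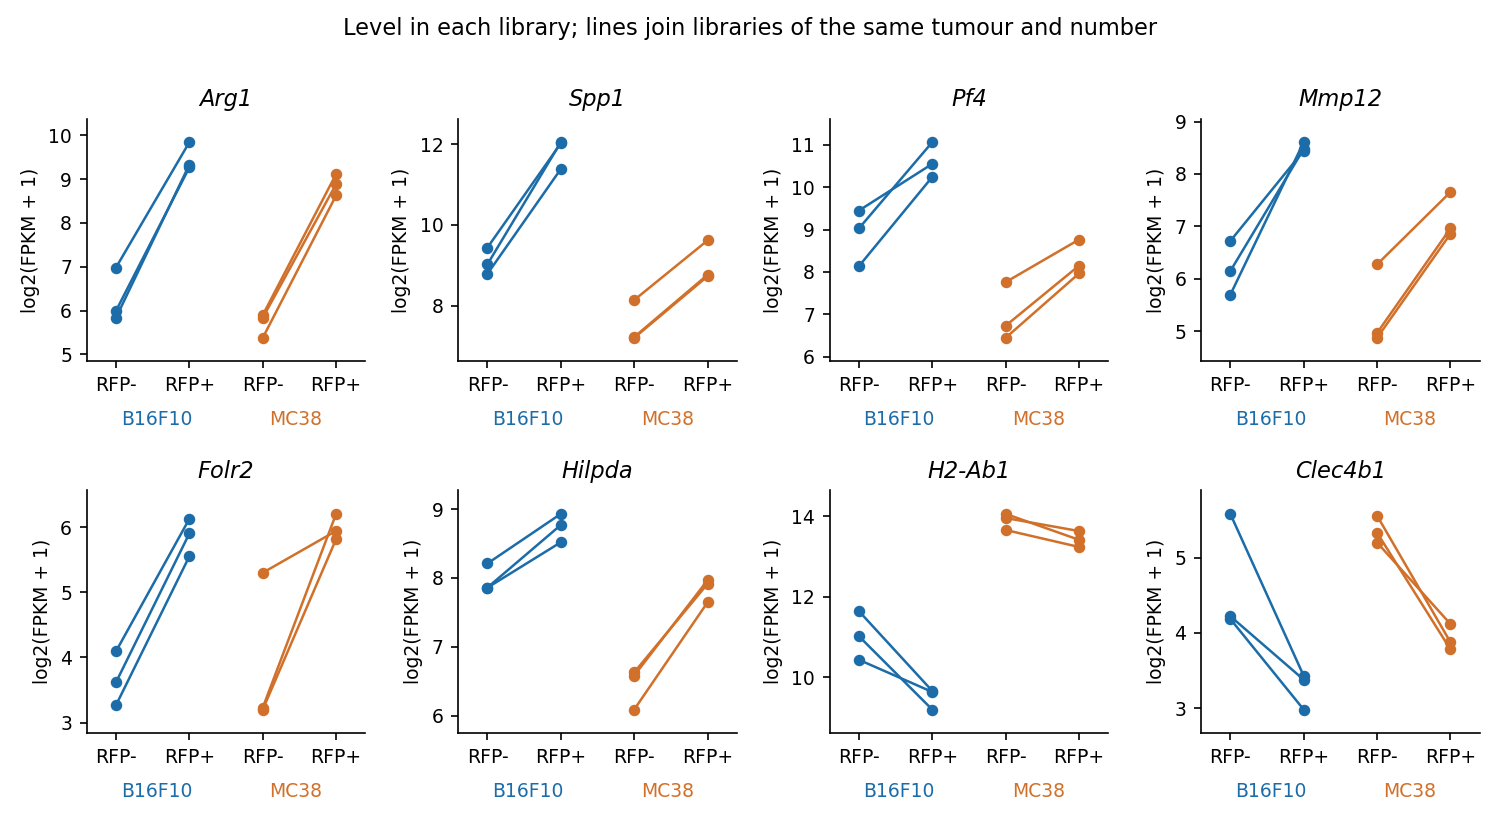
Level of 8 genes in log2(FPKM + 1) in each of the 12 libraries, B16F10 in blue and MC38 in orange, with a line joining the RFP- and RFP+ library of the same number. Every line of Arg1, Spp1, Pf4, Mmp12, Folr2 and Hilpda rises and every line of H2-Ab1 and Clec4b1 falls, and the starting levels of Spp1, Pf4, Hilpda and H2-Ab1 differ between the tumours.

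Matrix genes formed one of the broadest groups. Of 26 kept, 13 were higher and 0 lower in all 6 pairs; 4 rose without the block (Spp1, Mmp12, Mmp13 and Fn1) and 10 with it, and the median was 0.43 (0.56 in B16F10, 0.33 in MC38). Mmp12, the macrophage elastase, was at 389, 355 and 348 FPKM in B16F10 RFP+ and 50.8, 69.9 and 105 FPKM in RFP- libraries, and at 124, 200.5 and 115 FPKM (RFP+) and 30.3, 76.4 and 28.3 FPKM (RFP-) in MC38. It rose by 2.05 ± 0.24 (adjusted p = 0.00195), and the lowest RFP+ library was above the highest RFP- library over both tumours. Mmp13, a collagenase, was at 39.3, 82.8 and 53.1 FPKM in B16F10 RFP+ and 7.68, 13.2 and 15.7 in RFP- libraries, and at 71.5, 118 and 75.3 FPKM (RFP+) and 24.0, 72.7 and 41.5 FPKM (RFP-) in MC38, where RFP- library number 2 reached the RFP+ range. It rose by 1.59 ± 0.27 (adjusted p = 0.0194); the call was lost without B16F10 RFP+ number 3, B16F10 RFP- number 12, MC38 RFP+ number 1, MC38 RFP+ number 2 and MC38 RFP- number 3, with an adjusted p of up to 0.0778.

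Both enzymes lie in the metalloproteinase cluster of chromosome 9, together with Mmp10 (stromelysin-2), Mmp8 (a collagenase known from neutrophils) and Mmp27. All 5 genes of the cluster that were kept, of 10 listed, had positive means, and 4 were higher in all 6 pairs. Mmp10 was low, at 2.26, 2.16 and 2.92 FPKM in B16F10 RFP+ and 0.938, 1.02 and 0.619 in RFP- libraries, and at 2.01, 2.72 and 2.63 FPKM (RFP+) and 0.876, 0.503 and 0.794 FPKM (RFP-) in MC38. It rose by 0.95 ± 0.13 (adjusted p = 0.00893) and did not overlap over the 12 libraries. Mmp8 was higher in 5 of 6 pairs, by 1.31 ± 0.38 (adjusted p = 0.294; 0.00641 with the block). The list of 12 neutrophil markers summed to 52.1 to 369 FPKM in B16F10 RFP+ and 34.3 to 853 in RFP- libraries. In MC38 it summed to 49.5 to 56.0 FPKM (RFP+) and 46.8 to 52.2 FPKM (RFP-). The part of neutrophils in the Mmp8 value was not tested. Mmp12 overlaps Mmp1b in the annotation, and without a stated strand setting reads of the shared stretch cannot be told apart.

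The promoters of these neighbours are shown because 3 of them hold TGANTCA, the site of AP-1 factors (Fos and Jun), which is marked in capitals. The stretches lie at chr9:7272414-7272513, plus strand, at chr9:7347274-7347373, plus strand, and at chr9:7502242-7502341, plus strand.
Mmp13: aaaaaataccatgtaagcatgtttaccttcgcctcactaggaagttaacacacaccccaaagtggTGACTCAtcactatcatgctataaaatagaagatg
Mmp12: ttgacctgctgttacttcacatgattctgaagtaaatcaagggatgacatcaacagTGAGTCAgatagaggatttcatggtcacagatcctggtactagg
Mmp10: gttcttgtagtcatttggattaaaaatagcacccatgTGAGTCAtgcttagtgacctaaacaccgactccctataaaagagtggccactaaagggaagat
The motif begins 35, 44 and 63 bases before the start. Among genes higher in all 6 pairs and past the threshold, 30 of 39 had a promoter in the table, and 8 of their 41 promoters (19.5%) held the motif on either strand, against 8.27% for all same-sign higher genes, 4.98% for same-sign lower genes and 4.51% for all genes kept. These genes were Htr2b, Ecm1, Hilpda, Emp1, Folr2, Mmp13, Mmp12 and Mmp10. The printed stretches of Folr2 (chr7:101845332-101845431, minus strand) and Ecm1 (chr3:95739570-95739669, minus strand) let the sites be compared.
Folr2: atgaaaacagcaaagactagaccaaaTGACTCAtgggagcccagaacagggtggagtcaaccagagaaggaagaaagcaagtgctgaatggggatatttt
Ecm1: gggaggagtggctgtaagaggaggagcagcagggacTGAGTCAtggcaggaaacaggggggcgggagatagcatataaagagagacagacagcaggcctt
A match is a string of letters and no evidence of binding. Ecm1, a secreted matrix protein, rose by 0.93 ± 0.16 (adjusted p = 0.0194), and Emp1, a small membrane protein, by 0.94 ± 0.18 (adjusted p = 0.0388).

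Fn1, fibronectin, was at 58.6, 44.0 and 85.8 FPKM in B16F10 RFP+ and 17.8, 13.03 and 32.9 FPKM in RFP- libraries, and at 111, 155 and 107 FPKM (RFP+) and 58.6, 103 and 56.1 FPKM (RFP-) in MC38. It rose by 1.19 ± 0.23 (adjusted p = 0.0474). The call was kept without B16F10 RFP+ number 11, B16F10 RFP- number 3 and MC38 RFP- number 2, and any other single library left out ended it (adjusted p up to 0.161), although every pair was positive (0.59 to 1.68). Thbs1 (thrombospondin 1), F13a1 (coagulation factor XIII subunit A) and Adam8 (a membrane metalloproteinase) were higher in every pair, by 1.30, 1.48 and 0.93. They passed only with the block (adjusted p = 5.62e-05, 0.000847 and 9.46e-05, against 0.0998, 0.544 and 0.0526 without it). F13a1 varied by library number: its RFP- values in MC38 were 6.17, 52.8 and 6.84 FPKM and its RFP+ values 19.1, 81.5 and 30.7 FPKM, so the libraries numbered 2 were high in both gates.

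The lipid handling genes Cd36, Msr1 and Plin2 rose. Cd36, a scavenger receptor for oxidized lipids and fatty acids, was at 103, 105 and 99.1 FPKM in B16F10 RFP+ and 21.9, 33.7 and 48.9 FPKM in RFP- libraries, and at 33.7, 42.9 and 27.0 FPKM (RFP+) and 21.2, 25.6 and 14.3 FPKM (RFP-) in MC38. It rose by 1.17 ± 0.19 (adjusted p = 0.0160), a call lost without MC38 RFP+ number 1 and MC38 RFP+ number 2 (adjusted p up to 0.0670). The scavenger receptor Msr1 rose by 0.76 ± 0.14 (adjusted p = 0.0413) and the lipid droplet coat gene Plin2 by 0.50 ± 0.10 (adjusted p = 0.0474). The Msr1 call was kept without B16F10 RFP+ number 11 and B16F10 RFP- number 3 and lost without any of the other 10 libraries (adjusted p up to 0.126). Fabp5, a fatty acid binding protein, was higher in all pairs by 0.94 ± 0.21 and passed with the block alone (adjusted p = 0.00186 against 0.0937). Over the 25 lipid handling genes kept, 9 were higher and 0 lower in all pairs, 3 rose without and 6 with the block, and the median was 0.27. Cholesterol and fatty acid synthesis genes did not share this: of 23, 0 were higher and 2 lower in all pairs, with a median of -0.10.

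Ctsl, the lysosomal protease cathepsin L (chr13:64359337-64370890, minus strand), was at 296, 296 and 341 FPKM in B16F10 RFP+ and 92.2, 85.6 and 100.1 FPKM in RFP- libraries. In MC38 it was at 232, 292 and 210.0 FPKM (RFP+) and 166, 189 and 131 FPKM (RFP-). No RFP- library reached an RFP+ library of either tumour, and it rose by 1.17 ± 0.11 (adjusted p = 0.000456), with 1.74 in B16F10 and 0.60 in MC38. Atp6v0d2, a subunit of the vacuolar proton pump known from osteoclasts and macrophages, was at 47.2, 15.7 and 22.98 FPKM in B16F10 RFP+ and 7.001, 2.51 and 5.15 in RFP- libraries, and at 4.10, 7.47 and 4.99 FPKM (RFP+) and 0.402, 1.29 and 0.104 FPKM (RFP-) in MC38. It rose by 2.17 ± 0.29 (adjusted p = 0.00520). Of the 34 lysosome and proton pump genes, these included, 11 were higher and 0 lower in all pairs, 2 rose without and 6 with the block, and the median was 0.12. With the core scaling 5 were higher and 2 lower in all pairs and the median was 0.01; Ctsb, Ctsl and Atp6v0d2 were among the 5, and Ctsz and Gusb were the 2. Ctsb, cathepsin B, was higher by 0.43 (adjusted p = 0.576; 0.0376 with the block), while the pump subunits Atp6v1a, Atp6v1h and Atp6v1b2, which are expressed in most cells, were higher by 0.32, 0.15 and 0.11 and passed in neither fit.

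Hypoxia response genes were higher in most cases. Of 27 kept, 17 were higher and 1 lower in all 6 pairs, 4 rose without and 11 with the block, and the median was 0.41, with 0.35 in B16F10 and 0.39 in MC38. Under the core scaling, the same-sign counts were 10 higher and 2 lower. Hilpda, an inhibitor of lipid droplet breakdown, was at 366, 487 and 436 FPKM in B16F10 RFP+ and 231, 295 and 231 in RFP- libraries, and at 199, 249 and 240.1 FPKM (RFP+) and 67.0, 94.7 and 97.9 FPKM (RFP-) in MC38. It rose by 1.09 ± 0.12 (adjusted p = 0.00168). Egln3, an oxygen-sensing prolyl hydroxylase that is itself induced by hypoxia, was at 11.3, 16.4 and 14.2 FPKM in B16F10 RFP+ and 4.96, 6.32 and 5.69 in RFP- libraries, and at 12.9, 12.8 and 10.2 FPKM (RFP+) and 4.68, 3.01 and 5.07 FPKM (RFP-) in MC38. It rose by 1.24 ± 0.15 (adjusted p = 0.00195). Adm, the vasodilator peptide adrenomedullin, rose by 1.32 ± 0.19 (adjusted p = 0.00990), from 5.63, 5.29 and 5.91 to 24.1, 12.3 and 23.01 FPKM in B16F10 and from 4.29, 2.35 and 3.25 to 10.9, 6.01 and 7.02 FPKM in MC38. For Egln3 and Adm, all RFP+ libraries were above all RFP- libraries.

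Other members were higher by less. Bnip3, a mitophagy receptor, was higher by 0.61, the glucose transporter Slc2a1 by 0.42, the Myc antagonist Mxi1 by 0.63 and the collagen prolyl hydroxylase P4ha2 by 0.56, all in 6 of 6 pairs. Each passed with the block (adjusted p = 0.00332, 0.0357, 0.0138 and 0.0160) but missed the threshold when fitted unblocked (0.430, 0.166, 0.384 and 0.0893). P4ha2 differed by 0.05 in B16F10 and by 1.07 in MC38. Pfkfb4, a regulator of glycolysis, was lower in all pairs at -0.34 ± 0.18 (adjusted p = 0.720). The glycolysis enzymes as a list did not move alike: of 20 genes, 1 was higher in all pairs, with medians of -0.14 in B16F10 and 0.31 in MC38. By pair, the list medians were -0.46, 0.01 and -0.0005 in B16F10 numbers 12, 11 and 3. They were 0.28, 0.31 and 0.32 in MC38 numbers 1, 2 and 3. The negative B16F10 value thus rests on the pair with number 12, whose RFP- library stood apart.

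A pair of promoters of this group is printed because they hold ACGTG, the core of the site bound by hypoxia-inducible factors, in capitals. The Egln3 stretch (chr12:54203875-54204114, minus strand) has it 229 bases before the start, and the P4ha2 stretch (chr11:54100824-54100923, plus strand) 78 bases before it.
Egln3: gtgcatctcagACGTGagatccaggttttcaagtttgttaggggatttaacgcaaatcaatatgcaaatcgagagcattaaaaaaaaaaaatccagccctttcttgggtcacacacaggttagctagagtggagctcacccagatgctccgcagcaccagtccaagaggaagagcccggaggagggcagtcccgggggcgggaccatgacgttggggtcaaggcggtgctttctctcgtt
P4ha2: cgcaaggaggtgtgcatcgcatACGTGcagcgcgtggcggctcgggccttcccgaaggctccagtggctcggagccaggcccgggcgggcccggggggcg
Of the 17 same-sign higher hypoxia genes 13 had promoters in the table, and 12 of these 20 promoters (60%) held ACGTG on either strand, against 42.9% of 14 promoters of the other hypoxia genes, 21.9% of all promoters and 23.6% of those of all same-sign higher genes. Among all higher genes past the threshold, 7 of 41 promoters (17.1%) held ACGTG. The letters are part of CACGTG, the site of lysosome gene regulators, which was counted apart and stood in 4 of 6 promoters of same-sign higher lysosome genes (6 of the 11 genes had one in the table), in 3 of 29 promoters of the other lysosome genes and in 8.4% of all. These lists were drawn from known targets of such factors.

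**Figure D3:**
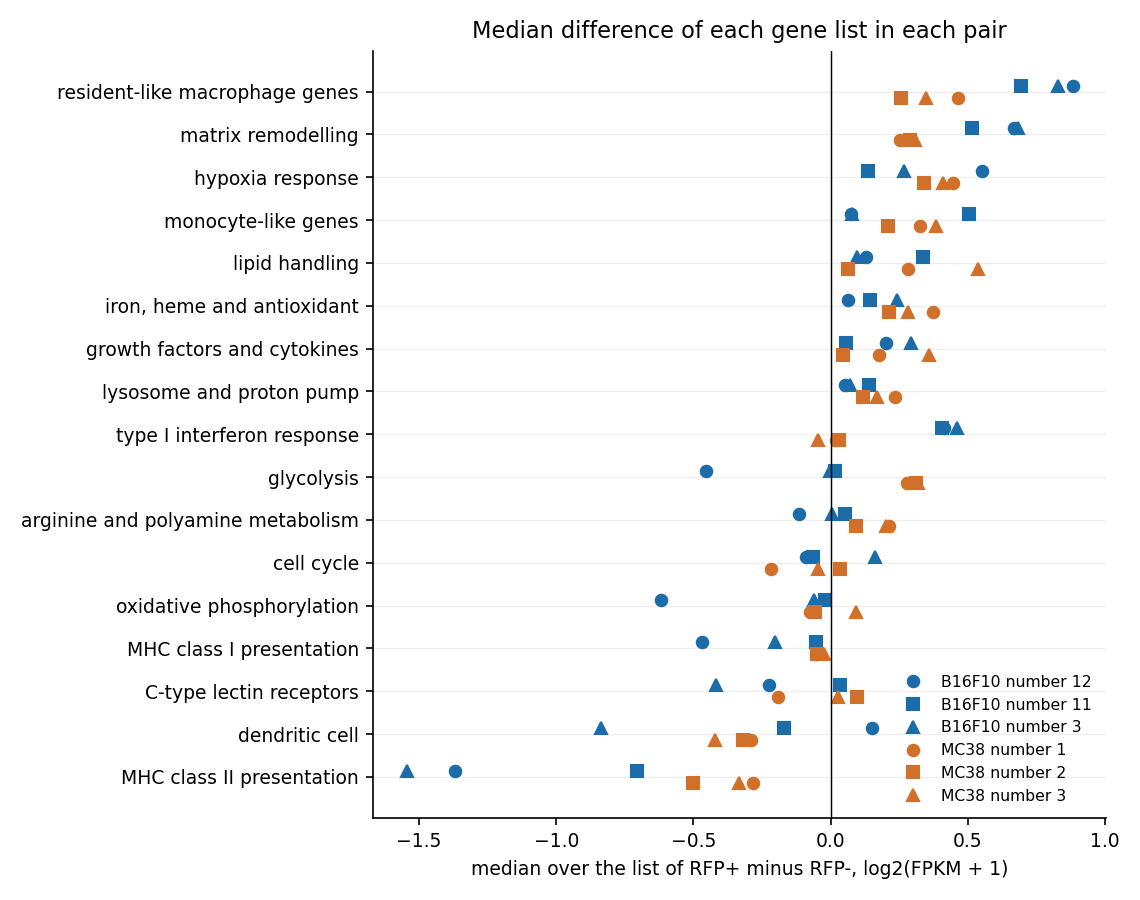
Median RFP+ minus RFP- difference in log2(FPKM + 1) of each gene list in each of the 6 pairs, B16F10 in blue and MC38 in orange, one symbol per library number. Resident-like, matrix, hypoxia, monocyte-like, lipid, iron, growth factor and lysosome lists were above 0 in all 6 pairs, MHC class II and class I presentation were below 0 in all 6, and type I interferon and glycolysis lists separated the tumours.

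Of the iron, heme and antioxidant genes, Hmox1 and Gclm rose. Hmox1, heme oxygenase 1, which releases iron from heme, was at 1040, 553 and 792 FPKM in B16F10 RFP+ and 399, 217 and 285 FPKM in RFP- libraries, and at 227, 183 and 147 FPKM (RFP+) and 127, 95.3 and 96.9 FPKM (RFP-) in MC38. It rose by 1.09 ± 0.18 (adjusted p = 0.0194), a call lost without B16F10 RFP+ number 3, MC38 RFP+ number 1, MC38 RFP+ number 2, MC38 RFP- number 2 and MC38 RFP- number 3 (adjusted p up to 0.0731). Gclm, a subunit of the enzyme that starts glutathione synthesis, did not overlap over the 12 libraries and rose by 0.70 ± 0.13 (adjusted p = 0.0407); its call was kept without B16F10 RFP+ number 3 and B16F10 RFP- number 11 and lost without any other single library (adjusted p up to 0.132). Srxn1, sulfiredoxin, was higher in all pairs by 0.49 (adjusted p = 0.0661; 0.0233 with the block). Fth1, the ferritin heavy chain, was among the most uniform genes: its 6 differences were 0.24, 0.35, 0.36, 0.39, 0.26 and 0.35, at levels of 6336 to 17694 FPKM, and it passed in neither fit (adjusted p = 0.544 and 0.248). Of 22 genes of this list, 6 were higher and 0 lower in all pairs, and the median was 0.26.

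Folr2, a folate receptor used to mark resident macrophages (chr7:101839988-101857194, minus strand), was at 68.9, 45.9 and 58.8 FPKM in B16F10 RFP+ and 16.1, 8.63 and 11.3 FPKM in RFP- libraries. In MC38 it was at 72.7, 60.5 and 55.3 FPKM (RFP+) and 8.38, 38.4 and 8.19 FPKM (RFP-), and RFP- library number 2 was the highest of the 6 RFP- libraries. It rose by 2.14 ± 0.31 (adjusted p = 0.00941), from pairs of 2.03, 2.28, 2.28, 2.97, 0.64 and 2.61. Of 16 resident-like genes kept, 9 were higher and 0 lower in all pairs, 2 (Folr2 and Pf4) rose without and 6 with the block, and the median of 0.62 was among the largest of the lists. With the core scaling 7 were higher and 0 lower in all pairs. The receptor Stab1 was higher in 3 of 6 pairs, at -0.02. The mannose receptor Mrc1 was higher in all pairs by 0.48 ± 0.27 and passed in neither fit (adjusted p = 0.728 and 0.0654). Of 23 monocyte-like genes, 10 were higher and 1 lower in all pairs, with 2 (Clec4d and Fn1) past the threshold without and 8 with the block. Lyz2, lysozyme, differed by 0.68 (adjusted p = 0.440; 0.0211 with the block), while Ccr2, the receptor that brings monocytes from the blood, was higher in 1 of 6 pairs, at -0.50 ± 0.29 (adjusted p = 0.734). F13a1 stands in both lists, and Fn1, Thbs1 and F13a1 also in the matrix list.

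A cluster of C-type lectin receptors on chromosome 6 split by gene order. From Clec4a1 (chr6:122921848-122934619) to Clec4e (chr6:123281789-123289870) lie 8 annotated genes, 7 of them kept. The first 4 kept genes, Clec4a1, Clec4a3, Clec4b1 and Clec4a2, had means of -0.44, -0.53, -1.42 and -0.28, and 3 of them were lower in all 6 pairs and Clec4a2 in 5. The last 3, Clec4n (Dectin-2), Clec4d (MCL) and Clec4e (Mincle), were higher in all 6 pairs, at 0.61, 1.11 and 0.62. The higher genes encode activating receptors for fungal, mycobacterial and dead-cell ligands. The Clec4a genes are of the family of the inhibitory receptor DCIR. Clec4b1, the largest fall of the cluster, is not a Clec4a gene, so no contrast of receptor types follows from these directions.

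Clec4d was at 33.4, 37.1 and 33.8 FPKM in B16F10 RFP+ and 14.7, 13.1 and 13.8 FPKM in RFP- libraries, and at 67.4, 63.4 and 66.6 FPKM (RFP+) and 30.5, 36.2 and 33.4 FPKM (RFP-) in MC38. The libraries of one group lay close together, and the rise of 1.11 ± 0.09 had an adjusted p of 5.26e-05. Clec4b1 (chr6:123049962-123071555) was at 9.41, 6.91 and 9.78 FPKM in B16F10 RFP+ and 17.7, 17.2 and 46.8 FPKM in RFP- libraries. In MC38 it was at 16.4, 12.8 and 13.7 FPKM (RFP+) and 35.8, 39.2 and 46.1 FPKM (RFP-). It fell by 1.42 ± 0.21 (adjusted p = 0.0112), with no overlap over all 12 libraries. Clec4n, Clec4e, Clec4a3 and Clec4a1 passed with the block alone (adjusted p = 0.00228, 0.00553, 0.0134 and 0.0330, against 0.396, 0.707, 0.558 and 0.704 without it). The Clec4a and Clec4b genes are close copies, so part of their reads may be assigned to the wrong member. The gene clusters described here were chosen after their values were seen.

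**Figure D4:**
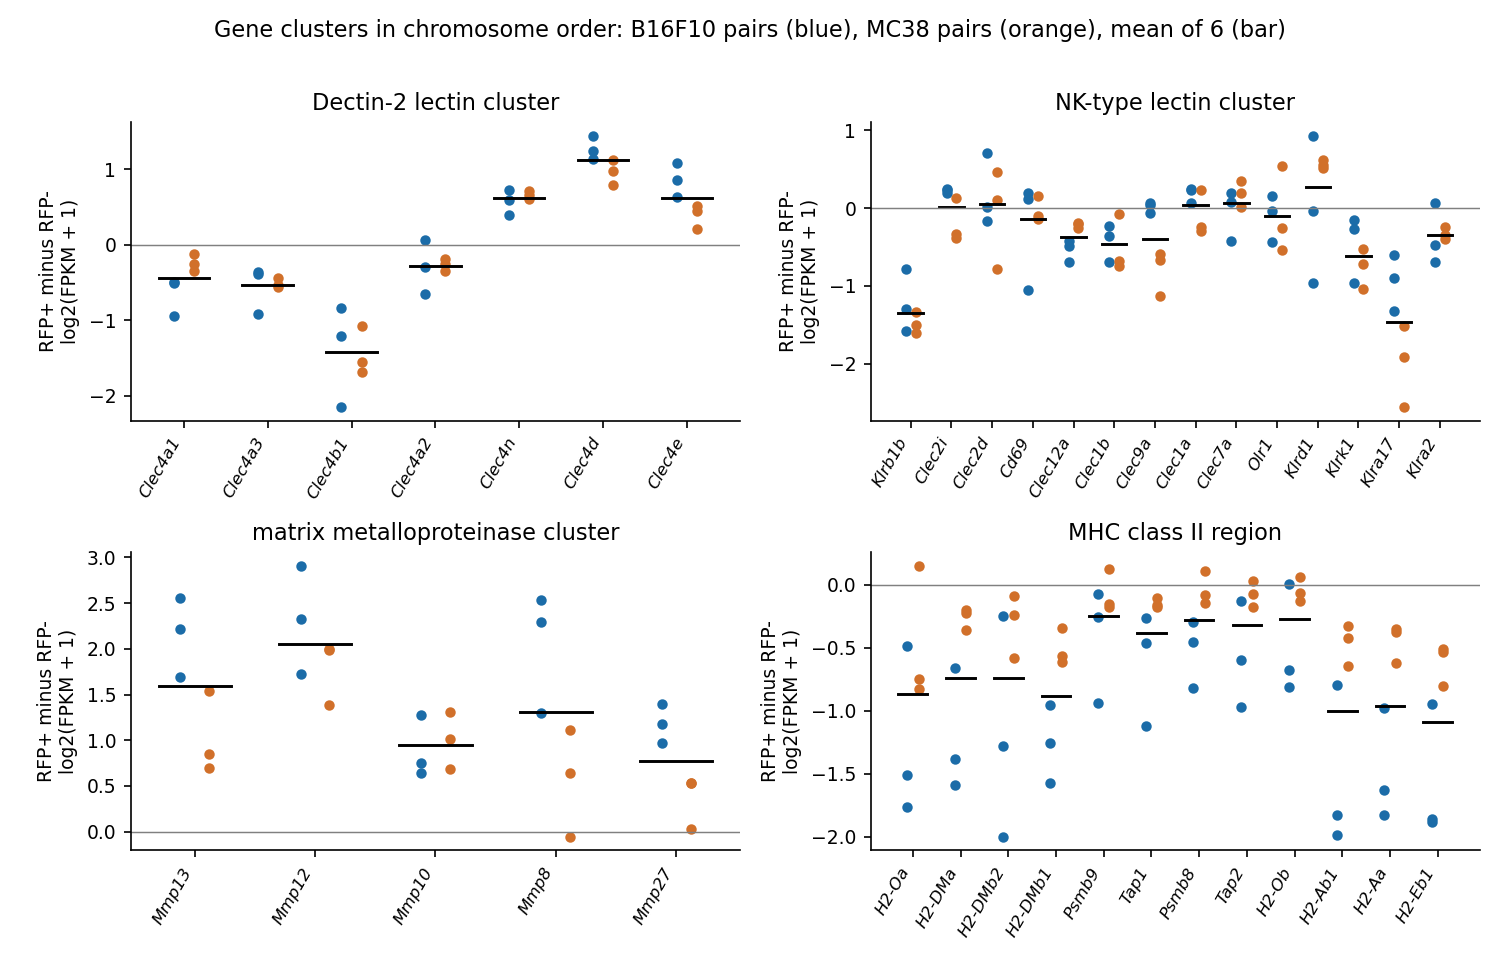
RFP+ minus RFP- difference in log2(FPKM + 1) for the kept genes of 4 clusters in chromosome order, with B16F10 pairs in blue, MC38 pairs in orange and the mean of 6 pairs as a bar. In the Dectin-2 cluster the first 4 genes have negative and the last 3 positive means, in the metalloproteinase cluster all 5 means are positive, and in the MHC class II region all 12 means are negative.

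On the same chromosome, 14 of 19 genes of the NK-type lectin cluster were kept, and 5 were lower and 0 higher in all pairs. Klrb1b, an inhibitory lectin-like receptor, was at 0.141, 0.447 and 0.326 FPKM in B16F10 RFP+ and 1.81, 3.32 and 1.29 FPKM in RFP- libraries, and at 13.6, 16.6 and 9.92 FPKM (RFP+) and 40.3, 52.6 and 26.5 FPKM (RFP-) in MC38. It was lower in all 6 pairs, by differences from -1.61 to -0.79, and fell by 1.35 ± 0.20 (adjusted p = 0.0112). Its B16F10 RFP+ levels lay under the 1 FPKM added before the log. That addition understates the fall there, so its size cannot be compared between the tumours. Klra17, of the Ly49 family, was at 0.507, 0.111 and 1.57 FPKM (RFP+) and 1.82, 1.79 and 2.92 FPKM (RFP-) in the B16F10 gates and at 6.62, 3.58 and 13.3 FPKM (RFP+) and 27.7, 26.0 and 39.7 FPKM (RFP-) in the MC38 gates. It fell by 1.47 ± 0.27 (adjusted p = 0.0380); the call was kept without B16F10 RFP+ number 3, B16F10 RFP- number 11 and MC38 RFP+ number 3 and lost without any other single library (adjusted p up to 0.112). Ly49 genes are near copies of each other, so the assignment to Klra17 is uncertain. Klrk1 (NKG2D, an activating receptor of NK and T cells) lies in the same cluster and was lower in all 6 pairs, at -0.61 (adjusted p = 0.359 and 0.0767 with the block). The 10 NK cell markers summed to 1.32 to 2.53 FPKM in B16F10 RFP+ and 2.24 to 3.46 FPKM in RFP- libraries, and to 9.43 to 14.9 and 7.02 to 20.1 FPKM in MC38. Of the 4 kept, 0 had the same sign in all pairs, and Klrd1 was higher in 4 of 6. Below the filter, Ncr1 was at most 0.318 FPKM in every library, and Klrb1c, at most 1.14 FPKM, was lower in 5 of 6 pairs. The part of such cells in these values was not tested.

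MHC class II genes were lower in RFP+ cells even though all cells had been sorted as MHCII+. Of 12 presentation genes kept, 7 were lower and 1 higher in all 6 pairs, 4 fell without and 6 with the block, and the median was -0.77, with -1.23 in B16F10 and -0.40 in MC38. H2-Ab1 (chr17:34257689-34269419), the beta chain of I-A, was at 584, 792 and 806 FPKM in B16F10 RFP+ and 2075, 1381 and 3200 FPKM in RFP- libraries. In MC38 it was at 12745, 10953 and 9683 FPKM (RFP+) and 15958, 17137 and 12980 FPKM (RFP-). The MC38 RFP+ libraries were thus far above the B16F10 RFP- libraries, while within each tumour the gates did not overlap. H2-Ab1 fell by 1.001 ± 0.19 (adjusted p = 0.0384). H2-Aa fell by 0.96 ± 0.19 (adjusted p = 0.0443) and H2-Eb1 by 1.09 ± 0.19 (adjusted p = 0.0222). The gates overlapped for H2-Aa in MC38, at 5546, 4825 and 3940 FPKM (RFP+) and 7073, 7425 and 5101 FPKM (RFP-). Tested in B16F10 alone, H2-Ab1, H2-Aa, H2-Eb1 and H2-DMb1 each passed in both limma fits. Tested in MC38 alone, none of them passed in either fit (adjusted p with the block 0.831, 0.607, 0.331 and 0.237).

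The calls of these chains depended on single libraries. That of H2-Ab1 was kept only without B16F10 RFP- number 11 and B16F10 RFP- number 3, that of H2-Aa only without B16F10 RFP- number 11, and that of H2-Eb1 was lost without B16F10 RFP+ number 12, MC38 RFP+ number 1, MC38 RFP+ number 2, MC38 RFP+ number 3, MC38 RFP- number 1 and MC38 RFP- number 2 (adjusted p up to 0.108, 0.136 and 0.0813). H2-DMb1, a chain of the peptide-loading chaperone, was steadier: it was at 70.7, 62.2 and 74.3 FPKM in B16F10 RFP+ and 170.2, 122 and 223 FPKM in RFP- libraries, and at 619, 624 and 603 FPKM (RFP+) and 915, 953 and 767 FPKM (RFP-) in MC38. It fell by 0.88 ± 0.13 (adjusted p = 0.00990) and kept the call with each library left out in turn. Without the FPKM filter it missed the threshold (limma adjusted p = 0.0892). The invariant chain gene Cd74 and H2-DMa were lower in all pairs, at -0.80 and -0.74, and passed with the block alone (adjusted p = 0.0122 and 0.00758, against 0.0903 and 0.162). Ctss, the cathepsin that cuts the invariant chain, was the 1 member higher in all pairs, by 0.34 (adjusted p = 0.552). Of 16 MHC class I presentation genes, 2 were lower and 0 higher in all pairs, with a median of -0.14. With the core scaling, 10 of the 12 class II genes were lower in all 6 pairs.

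Some markers of dendritic cells, which also carry MHC class II, were lower. Their 14 genes summed to 20.9 to 28.7 FPKM in B16F10 RFP+ and 34.9 to 65.4 FPKM in RFP- libraries, and to 37.1 to 64.6 and 55.1 to 102 FPKM in MC38, and none was at 0 in all libraries of a group. Of 12 kept, 3 were lower and 0 higher in all pairs, with a median of -0.44. Xcr1, the chemokine receptor of cross-presenting dendritic cells, fell by 0.85 ± 0.15 (adjusted p = 0.0310) at levels of at most 4.80 FPKM. Ccr7, a homing receptor, was at 3.74, 8.74 and 0.164 FPKM in B16F10 RFP+ and 8.44, 39.6 and 4.03 in RFP- libraries, and at 18.4, 25.7 and 9.18 FPKM (RFP+) and 23.9, 50.9 and 12.8 FPKM (RFP-) in MC38. Its difference of -1.15 ± 0.57 passed with the block (adjusted p = 0.00462, against 0.698). Dnase1l3, a secreted DNase of dendritic cells and macrophages, fell by 0.85 ± 0.16 (adjusted p = 0.0443); its call was kept without B16F10 RFP- number 11 and MC38 RFP- number 3 and lost without any other single library (adjusted p up to 0.142). Zbtb46, a defining factor of the lineage, was at 1.31 to 4.49 FPKM in B16F10 and 0.479 to 1.22 FPKM in MC38, and was higher in 3 and lower in 3 of the 6 pairs. The part of such cells in the MHC class II values was not tested.

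Other genes on the lower side had no common list. Tmem176a, a membrane protein gene active in myeloid antigen-presenting cells, was at 38.1, 59.2 and 45.7 FPKM in B16F10 RFP+ and 119, 72.5 and 85.1 FPKM in RFP- libraries, and at 60.1, 52.2 and 104 FPKM (RFP+) and 174, 159 and 192 FPKM (RFP-) in MC38. It fell by 1.13 ± 0.18 (adjusted p = 0.0143), a call lost without MC38 RFP+ number 1 (adjusted p = 0.0538). Its neighbour Tmem176b, on the opposite strand with an overlapping stretch, was lower in all pairs at -0.85 (adjusted p = 0.0843; 0.00394 with the block), and reads of the shared stretch cannot be told apart. Rogdi, which encodes a protein tied to the vacuolar proton pump, was at 21.2, 25.8 and 21.1 FPKM (RFP+) and 50.6, 35.8 and 38.2 FPKM (RFP-) in the B16F10 gates and at 21.8, 24.8 and 26.1 FPKM (RFP+) and 32.5, 53.5 and 41.7 FPKM (RFP-) in the MC38 gates. It fell by 0.80 ± 0.13 (adjusted p = 0.0194), a call lost without B16F10 RFP+ number 12, B16F10 RFP+ number 3, MC38 RFP+ number 1, MC38 RFP+ number 2 and MC38 RFP- number 3 (adjusted p up to 0.0838). Orai3, a calcium channel subunit, fell by 0.62 ± 0.12 (adjusted p = 0.0417) and kept its call only without B16F10 RFP- number 12 and B16F10 RFP- number 11 (adjusted p up to 0.139 otherwise). Siglece, an inhibitory sialic acid receptor, was lower in all pairs at -1.33 ± 0.30 and passed with the block alone (adjusted p = 0.00206, against 0.0907). Axl, a receptor for dying cells, was lower in all pairs, at -0.66 (adjusted p = 0.311; 0.00667 with the block), whereas its relative Mertk was higher in all, by 0.49 (adjusted p = 0.632; 0.0568).

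**Figure D5:**
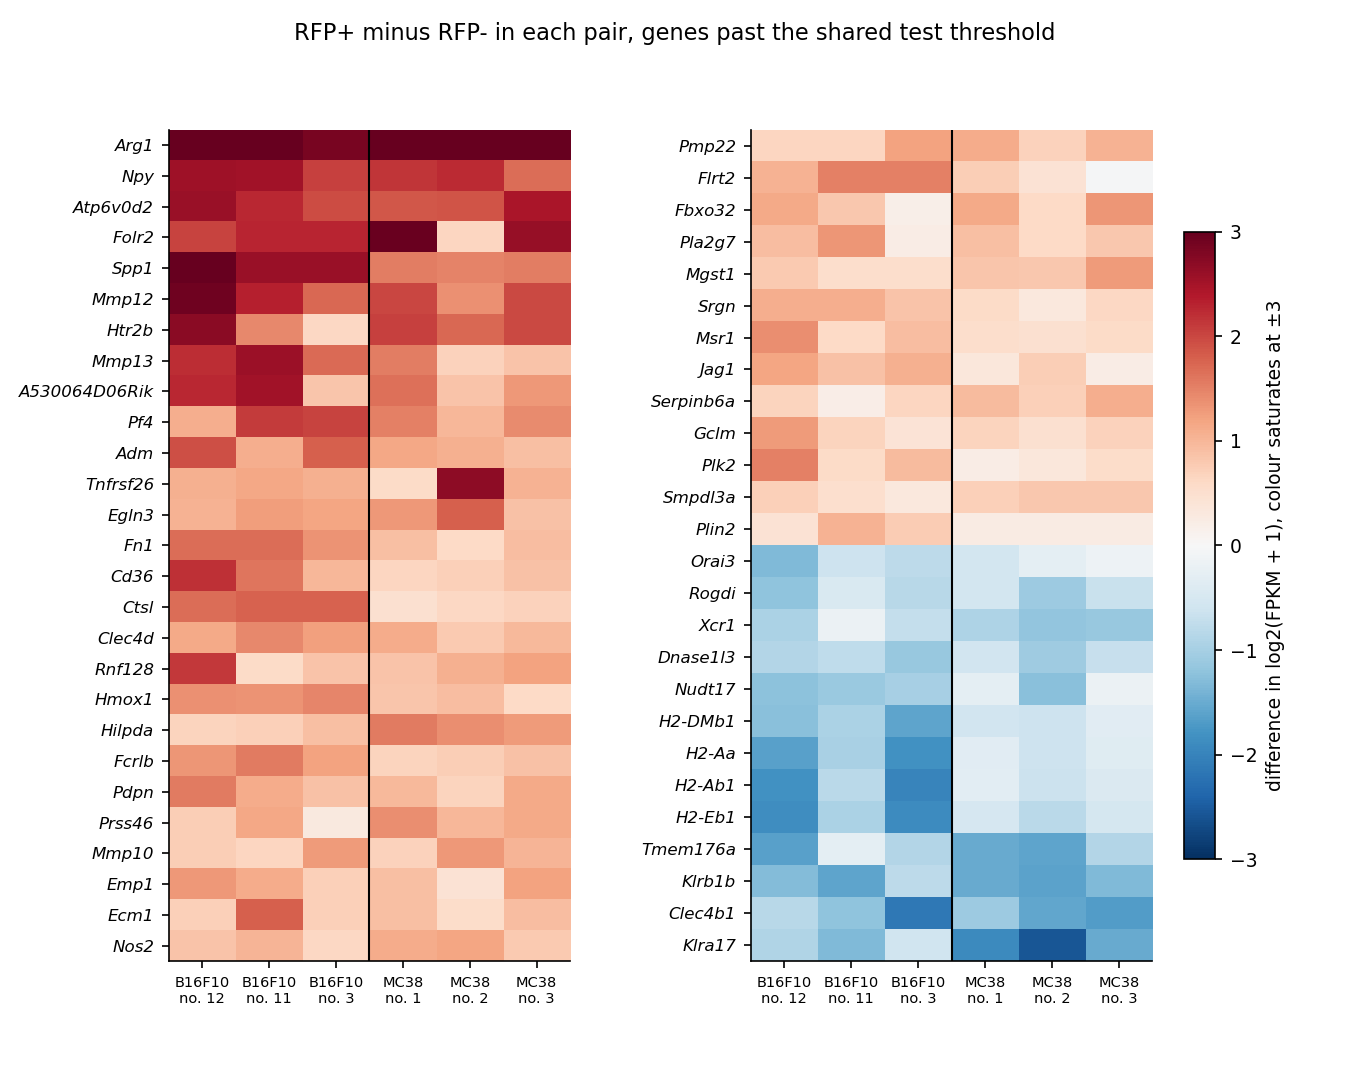
RFP+ minus RFP- difference in log2(FPKM + 1) in each of the 6 pairs (columns) for the 53 genes past the shared threshold (rows, ordered by mean difference from the top left), red for higher and blue for lower. Arg1 is dark in all 6 columns, Ctsl and the H2 genes are darker in the B16F10 columns, Hilpda and Klra17 are darker in the MC38 columns, and Flrt2 has 1 pair near 0. The B16F10 changes of Klra17, at most 2.92 FPKM there, are understated by the 1 added before the log.

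The low genes Npy and Htr2b were also past the threshold, as was the more abundant Pdpn. Npy, neuropeptide Y, was at 4.84, 17.0 and 5.31 FPKM in B16F10 RFP+ and 0, 2.11 and 0.531 FPKM in RFP- libraries, and at 4.59, 3.70 and 2.201 FPKM (RFP+) and 0.266, 0 and 0 FPKM (RFP-) in MC38, so that 3 RFP- libraries were listed at 0. It rose by 2.19 ± 0.31 (adjusted p = 0.00941). Htr2b, a serotonin receptor, was at 5.53, 2.499 and 0.545 FPKM (RFP+) and 0, 0.291 and 0 FPKM (RFP-) in the B16F10 gates and at 6.73, 6.58 and 6.14 FPKM (RFP+) and 0.878, 1.29 and 0.811 FPKM (RFP-) in the MC38 gates, and rose by 1.75 ± 0.27 (adjusted p = 0.0113). Pdpn, podoplanin, a ligand of the platelet receptor CLEC-2, was higher at 25.9, 30.1 and 15.7 against 8.16, 13.4 and 7.997 FPKM in B16F10 and at 52.7, 55.6 and 42.1 against 26.4, 34.4 and 18.6 FPKM in MC38. It rose by 1.06 ± 0.19 (adjusted p = 0.0344).

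Further lists are given for contrast, and not all of them lay near the share of all genes. Of all genes kept, 4.52% were higher and 4.01% lower in all 6 pairs. Of the 36 oxidative phosphorylation genes, 3 had a positive mean difference. Of 36 oxidative phosphorylation genes, 0 were higher and 6 lower in all 6 pairs, with a median of -0.12 and 0 past the threshold in either limma fit (1 at an unadjusted p under 0.05 without and 4 with the block); with the core scaling 24 were lower in all pairs. Of 26 type I interferon genes, 4 were higher and 1 lower in all pairs, with medians of 0.35 in B16F10 and 0.01 in MC38 and 0 past the limma threshold in either fit (1 at an unadjusted p under 0.05 without and 11 with the block). Of 30 cell cycle genes, 0 were higher and 2 lower in all pairs (median -0.05). The alternative activation list without Arg1 had 2 of 20 genes higher in all pairs, Mrc1 and the transcription factor Klf4 (0.72; adjusted p = 0.343, 0.0364 with the block). In the same list, Ccl17 and Ccl22, ligands of CCR4, were higher in 1 and 2 of 6 pairs, at -1.31 and -0.74 (adjusted p = 0.495 and 0.741). Classical activation genes had 4 of 18 higher in all pairs, Nos2, Il1a, the prostaglandin synthase Ptgs2 (0.84) and the NAD-consuming enzyme Cd38 (0.81). The median of that list was 0.26, with 0.41 in B16F10 and 0.01 in MC38. The ligand of PD-1, Cd274, was higher in all 6 pairs by 0.29 ± 0.12, in neither fit past the threshold (adjusted p = 0.611 and 0.248), and Nt5e (CD73, which makes adenosine) was higher by 1.18 ± 0.27 (adjusted p = 0.0946; 0.000881 with the block).

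The size of the shared differences was not equal in the tumours. Same-sign higher genes had a median of 0.42 in B16F10 and 0.30 in MC38, and same-sign lower genes -0.41 and -0.22. The mean difference was larger in B16F10 for 376 of the 534 higher and 363 of the 474 lower genes, and the pair with B16F10 number 12 had medians of 0.57 and -0.60 against 0.28 to 0.33 and -0.18 to -0.29 in the other 5 pairs. No gene passed a test of B16F10 minus MC38 without the block in limma (455 had an unadjusted p under 0.05). With the block 3 passed as higher (0.0254%) and 1 as lower (0.00847%), among them 1 same-sign gene, Ctsl. Tested in 1 tumour alone without the block, 15 genes were higher (0.127%) and 6 lower (0.0508%) in B16F10, and 3 were higher (0.0254%) and 0 lower (0%) in MC38, where 135 lower genes had an unadjusted limma p under 0.05. The block fit gave 98 higher (0.83%) and 62 lower (0.525%) in B16F10, and 42 higher (0.356%) and 10 lower (0.0847%) in MC38. Of the 53 shared genes, 34 passed in neither tumour alone and 2 in both. With the block, 26 genes passed in both tumours, among them Arg1, Spp1, Pf4, Mmp12, Folr2, Ctsl, Hmox1, Fn1, Hilpda, Egln3, Clec4b1 and Klrb1b.

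Of 29 shared genes named by rule, 13 kept their call with each of the 12 libraries left out in turn: Arg1, Spp1, Mmp12, Clec4d, Ctsl, Atp6v0d2, Folr2, Adm, Egln3, Hilpda, H2-DMb1, Clec4b1 and Klrb1b. Without the FPKM filter, 7 of the 29 kept the call: Arg1, Spp1, Mmp12, Clec4d, Ctsl, Egln3 and Hilpda. Scaling to the macrophage core genes ended 9 of these 29 calls, those of Nos2, Mmp13, Egln3, Cd36, Rogdi, Orai3, Hilpda, Msr1 and Gclm (adjusted p of 0.281, 0.0744, 0.0656, 0.118, 0.0538, 0.208, 0.0821, 0.0940 and 0.430). Over all 53 shared genes, 24 kept the call under that scaling.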

How the data were processed

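The deposited tables, 1 for each of the 12 libraries, list gene symbols and their FPKM, a unit named per the file headers. The labels' protocols give TRI Reagent RNA, SMART-Seq HT cDNA and Nextera XT libraries. The submitters' processing notes name TopHat2 2.1.1, Bowtie2 2.2.8, SAMtools 0.1.18, Cuffdiff 2.2.1 and mm10. An annotation, a strand setting or a scaling between libraries is not given in the sources used here. Read counts are not used here, so the depth is unknown and no count model was fitted. Total FPKM ran from 614875 to 815591 per library.

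Values were taken as log2(FPKM + 1); a pseudocount of 1 understates changes of low genes. RFP+ minus RFP- was computed in each pair of the same tumour and title number, and a difference of exactly 0 counted for neither sign. Tests used limma 3.58.1 in R 4.3.3 (lmFit, eBayes with a trend), with 4 group means of 3 libraries, 8 residual degrees of freedom, two-sided p-values and Benjamini-Hochberg adjustment over 11808 genes. The fit was tested on simulated data. Same-numbered libraries deviated together from their group means (r from 0.228 to 0.443 in the 6 pairs, all over 0.1, against -0.306 to 0.0178 for other numbers), so the numbers were taken to pair the libraries, from the data and not the labels. Deviations from a group mean sum to 0, so the low r of other numbers is tied to the same-number values and is not separate evidence. The block fit (4 residual degrees of freedom) is given beside the first where it changed a call. P-values measure the spread between libraries, which may be partly technical.

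Named were 14 fixed genes, the 12 largest rises and the 12 largest falls past the threshold with the same sign in all pairs and a mean of at least 5 FPKM (filled from the block fit), up to 4 same-sign members of each list, the 6 most uniform genes in each direction, same-sign genes that differed between tumours, and the 4 largest differences in each direction among genes with the same sign in 5 of 6 pairs. Genes named outside this rule, such as Npy, Htr2b, Mmp10, Pdpn, Ecm1, Emp1, Plin2, Xcr1, the remaining list members and the cluster neighbours, were chosen after their values were seen. The members and lists were chosen with earlier results of these data known, so lists are described by counts and medians and were not tested. Alternatives changed the pseudocount (0.1 or 5), the filter (none, or 5 FPKM) or the scaling (quantile, upper quartile, macrophage core genes), added the block or array weights, asked for a log2 difference of 0.5 or more, or left out 1 library. Python 3.11.15, pandas 2.3.3 and matplotlib 3.10.9 made the tables and plots.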

Additional observations from a re-analysis of the deposited data

Results flagged for a closer look

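The RFP+ difference differed between the tumours for 2 named genes, by the test of that difference with the pairs as a block. Ppbp (CXCL7, a platelet chemokine) had a B16F10 minus MC38 difference of 3.96 ± 0.46 (SE; limma adjusted p = 0.0332), from 4.10 in B16F10 and 0.14 in MC38. Its levels were 46.9, 162 and 119 FPKM in B16F10 RFP+ and 1.97, 3.84 and 11.9 FPKM in RFP- libraries, against 1.23, 3.16 and 0.0139 FPKM (RFP+) and 1.66, 1.29 and 0.143 FPKM (RFP-) in MC38, so that the gates were apart in B16F10 and overlapped in MC38. Ctsl had a difference of 1.14 ± 0.15 (adjusted p = 0.0332), with the same direction in all 6 pairs. Without the block neither passed (adjusted p = 0.895 for Ppbp and 0.895 for Ctsl).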

How the results depend on the processing

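No gene named by the rule changed direction under any alternative, and genes named outside the rule were not followed through all of them. The causes of the changes in counts below were not tested unless stated. For the shared difference (40 higher, 13 lower), the replicate block gave 156 and 71, array weights 166 and 99, the block without the B16F10 number 12 pair 215 and 112, no filter 13 and 0, and a log2 difference of at least 0.5 gave 4 and 0. The 4 genes past that last limit were Arg1, Spp1, Mmp12 and Clec4d. A pseudocount of 0.1 left 8 lower genes, and core scaling left 18 higher ones. Same-sign genes (534 and 474) became 230 and 1361 with core scaling and, by construction fewer, 88 and 38 with at least 0.25 in every pair.

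Within B16F10 (15 and 6), the block gave 98 and 62, array weights 128 and 110, and no filter 7 and 0; a pseudocount of 0.1 gave 6 higher, quantile normalization 3 lower and core scaling 10 lower. Within MC38 (3 and 0), the block gave 42 and 10, array weights 43 and 16, a pseudocount of 5 gave 8 and 3, quantile normalization 5 and 1, and core scaling 1 higher. For B16F10 minus MC38 (0 and 0), the block gave 3 and 1, and no filter gave 2 higher.

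With 1 library left out, shared counts ran from 16 to 51 higher and from 3 to 29 lower. They were lowest without MC38 RFP+ number 1 (16 and 3) or number 2 (16 and 5) and highest without B16F10 RFP- number 11 (51 and 29). Without B16F10 RFP+ number 12 they were 25 and 6, without B16F10 RFP+ number 3 they were 23 and 6, and without MC38 RFP- number 1 or number 3 they were 22 and 6 or 19 and 7. Without B16F10 RFP- number 12, B16F10 RFP- number 3 or MC38 RFP- number 2, the lower genes numbered 7, 7 and 6. Same-sign counts, then over 5 pairs and so larger by construction, ran from 707 to 782 higher and from 625 to 826 lower, the latter without MC38 number 3. Counts ran from 4 to 51 and 0 to 39 within B16F10, from 1 to 5 and 0 to 4 within MC38, and from 0 to 1 and 0 to 0 between the tumours. The block fit changed no call in the other direction: all 53 genes passed in both fits. Read depth is unknown, so levels near 0 give no limit of detection.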

Other observations

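The genes most alike across the 6 pairs included ones with small differences. After Arg1, the ratio of the mean difference to the SD of the pairs was highest for Scp2, a sterol carrier protein, with differences of 0.19, 0.20, 0.25, 0.20, 0.17 and 0.19, a narrow band in both tumours. Scp2 lost the shared sign when libraries were scaled to the macrophage core genes, with 0.11, -0.0085, 0.25, 0.07, 0.13 and -0.0011, and passed in neither fit without that scaling (adjusted p = 0.594 and 0.275 with the block). Il18bp, the secreted inhibitor of interleukin-18, was at 23.3, 17.5 and 21.7 FPKM in B16F10 RFP+ and 17.0, 11.4 and 13.1 FPKM in RFP- libraries and at 172, 180.1 and 183 FPKM (RFP+) and 127, 134 and 126 FPKM (RFP-) in MC38. Its difference was 0.51 ± 0.11 (limma adjusted p = 0.0661; 0.00805 with the block). On the lower side, the transcriptional cofactor Lmo4 had differences of -0.59, -0.52, -0.54, -0.42, -0.71 and -0.45, and Alg8, a glycosylation enzyme, of -0.25, -0.34, -0.21, -0.23, -0.21 and -0.23. These values chose the genes and are a description.

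Genes with the same sign in 5 of 6 pairs had some of the larger means. Ednrb, an endothelin receptor, was at 1.08, the eotaxin Ccl24 at 1.05 and the fatty acid binding protein Fabp4 at 0.90; Ccl24 differed by 2.19 in B16F10 and -0.08 in MC38. On the lower side Ccl17 was at -1.31, the receptor gene Cd300e at -1.19, the ribonuclease Ear2 at -0.94 and Asb2 at -0.85. The pair that kept genes from having the same sign was most often MC38 number 3, with 247 genes higher and 349 lower in the other 5 pairs alone, against 173 to 223 and 150 to 227 for each other pair.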
